A study of Mus musculus with 15 samples.

Results

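The 19 genes described here had ribosome-bound messages that stood high on day 2 of ureteral obstruction and lower both in sham-operated kidneys and on day 5. They were selected on the bound arrays themselves: the lowest day 2 array had to exceed every day 0 and day 5 bound array, the day 2 mean had to be at least 1 above both other means and at least 8, all on a log2 scale. Of 18161 genes on the arrays, 19 (0.105%) met the rule. The same rule with the peak placed on day 0 held 378 genes (2.08%), and with the peak on day 5 it held 244 (1.34%). Because the bound arrays chose the members, every bound value of a member below is a description without a test. The unbound arrays were not compared by the rule, though they shared the normalization and the choice of 1 probe set per gene. Day 5 against day 0 in that fraction is the comparison tested for the members, with the spread pooled over all groups, bound ones included. Tests in the bound fraction are given only for genes of pathway lists that are not members.

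All mice carried Tg:Col1a1-eGFPL10a, in which collagen1α1 promoter and enhancer sequence drives the ribosomal protein L10a fused to GFP, so that ribosomes are tagged in cells that use this element. Tagged ribosomes and the messages on them were pulled from kidney lysates (TRAP, translating ribosome affinity purification), and polysomal RNA was read on 15 one-colour Affymetrix arrays in 5 groups of 3. The bound fraction, labelled kidney pericytes (periarterial fibroblasts), was taken after sham surgery on day 0 (arrays 1 to 3) and after unilateral ureteral obstruction, in which the ureter is closed and the kidney becomes injured and fibrotic, on day 2 (arrays 7 to 9) and day 5 (arrays 10 to 12). The unbound fraction, labelled kidney medulla, came from day 5 of obstruction (arrays 13 to 15) and from day 0 (arrays 4 to 6). Unbound RNA of day 2 was not analysed here. All groups share the strain C57/129sv, the stage P14-P300 and the sex label "both", and the labels call them WT beside the transgene. Whether the 3 arrays of each group stand for different animals is not stated, so a p-value here covers the spread between arrays, which may be technical, and the number of arrays limits its precision.

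Acute phase proteins are secreted in inflammation, mostly by the liver under interleukin-6 and the transcription factor STAT3, and injured kidney tubules are known to make fibrinogen as well. Fibrinogen is built from chains encoded by Fga, Fgb and Fgg and is the precursor of fibrin. Phosphate transporters and alkaline phosphatase act at the surface of epithelial cells, and cells that enter DNA replication raise messages for the enzymes that load, unload and repair the replication machinery.

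The 3 fibrinogen genes lie side by side on mouse chromosome 3, within 42140 bases (chr3:83007724-83049863, GRCm38.p6) and with 0 other protein-coding genes starting between them. Their promoter windows and that of Saa1 are shown because these 4 genes stood farthest above both other times, by the smaller of the day 2 minus day 0 and day 2 minus day 5 differences. Each window runs from 250 bases before to 50 bases after the start, read 5′ to 3′ on the strand of the gene, from RefSeq (GRCm38.p6). Capitals mark 3 motifs searched on both strands, the STAT element TTCNNNGAA, the C/EBP element TTGCNNAA and the partial HNF1 site GTTAAT. The windows are chr3:83025903-83026202 for Fga, chr3:83049814-83050113 (minus strand) for Fgb, chr3:83007474-83007773 for Fgg and chr7:46742931-46743230 (minus strand) for Saa1.
Fga: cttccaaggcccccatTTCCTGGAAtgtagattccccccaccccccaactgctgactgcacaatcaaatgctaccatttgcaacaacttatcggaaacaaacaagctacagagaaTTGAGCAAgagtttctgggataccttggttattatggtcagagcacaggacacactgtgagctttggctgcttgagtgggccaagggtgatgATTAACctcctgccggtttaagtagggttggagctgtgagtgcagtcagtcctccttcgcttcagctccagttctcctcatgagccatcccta
Fgb: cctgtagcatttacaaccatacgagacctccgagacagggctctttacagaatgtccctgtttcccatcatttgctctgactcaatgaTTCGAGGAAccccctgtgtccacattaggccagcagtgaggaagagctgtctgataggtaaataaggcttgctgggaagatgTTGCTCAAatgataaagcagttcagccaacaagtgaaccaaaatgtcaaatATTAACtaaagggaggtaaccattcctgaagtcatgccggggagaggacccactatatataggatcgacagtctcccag
Fgg: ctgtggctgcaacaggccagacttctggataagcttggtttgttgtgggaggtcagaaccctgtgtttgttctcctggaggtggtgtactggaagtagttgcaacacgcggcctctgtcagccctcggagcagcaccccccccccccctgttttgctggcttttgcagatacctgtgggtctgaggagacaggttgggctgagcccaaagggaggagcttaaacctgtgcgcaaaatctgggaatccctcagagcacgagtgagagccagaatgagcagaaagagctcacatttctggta
Saa1: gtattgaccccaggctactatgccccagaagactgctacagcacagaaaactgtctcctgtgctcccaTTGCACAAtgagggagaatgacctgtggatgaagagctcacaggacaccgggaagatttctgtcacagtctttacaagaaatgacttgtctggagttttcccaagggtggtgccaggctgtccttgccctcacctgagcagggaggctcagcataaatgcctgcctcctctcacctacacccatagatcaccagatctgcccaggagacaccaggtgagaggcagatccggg
The Fga window held all 3 motifs, with the STAT element beginning at -234, the C/EBP element at -135 and the HNF1 letters at -43, counted from the start site. The Fgb window held them in the same order at -162, -80 and -29. In the Saa1 window only the C/EBP letters were found, and in the Fgg window none of the 3. Of all 32851 promoter windows of this length, 8.30% held the STAT letters, 10.8% the C/EBP letters and 7.10% the HNF1 letters. Promoter windows were found for 15 of the 19 members (17 windows), and these 3 motifs and the E2F element below were added after the members were known. The STAT letters were in 2 of the 17 member windows, and the C/EBP letters and the HNF1 letters in 4 each. Slc34a2 was the other member with the C/EBP letters, and Alpl and Atad5 were the others with the HNF1 letters. The E2F letters TTTNNCGC were found for Atad5, Fignl1 and Fgg, in 3 of the 17 windows against 5.17% of all windows. Of the 11 motifs listed at the outset, the GC box GGGCGG was in 8 of the 17 member windows against 35.7% of all windows, and the CCAAT box was in 1 against 37.4%. The AP-1 element TGANTCA, the E-box CACGTG and the NF-kB site were in 1 window each, against 7.81%, 7.15% and 8.46% of all windows. The TATA box TATAAA was in 2 (13.6% of all windows) and the antioxidant element TGACNNNGC in 2, both of Alpl (12.4%). The CRE, ATF4, heat shock and CArG motifs were in 0, against 1.79%, 3.97%, 7.86% and 1.63% of all windows. A match is a description of these letters and not a bound site.

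Several arrays stood apart. Across genes, array 8 of day 2 correlated with the day 5 arrays 10, 11 and 12 at 0.951, 0.927 and 0.958, and with the other day 2 arrays at 0.922 and 0.929. Array 7 correlated with the same day 5 arrays at 0.900 to 0.915 and array 9 at 0.904 to 0.924. Arrays 6, 9, 12 and 15 were brighter than the rest, with spiked hybridization controls averaging 12114 to 12905 intensity units against 4727 to 5864. On array 11 of day 5 the 5′ Gapdh probe set gave 0.0269 of the 3′ signal. Array 9 of day 2 gave 0.178, and the other arrays gave 0.331 to 0.583. The normalized signal of 20 fibroblast markers summed to 43113 to 52205 on the day 0, 45674 to 65584 on the day 2 and 58914 to 69662 on the day 5 bound arrays, against 32262 to 33648 on the day 5 and 11750 to 14660 on the day 0 unbound arrays. Meox2 was at the negative controls in the day 2 and day 5 bound groups, and Clec3b in the day 5 bound group. Col1a1, whose element drives the transgene, averaged 11.61 ± 0.08, 12.77 ± 0.11 and 12.98 ± 0.08 in the bound fraction on days 0, 2 and 5 (SD, n = 3 each). Its day 5 mean was not below its day 2 mean.

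The acute phase members were the serum amyloid gene Saa1 and the 3 fibrinogen chain genes, and their bound messages were far higher on day 2 than at the other times. Levels here and below are log2 normalized signal, where a difference of 1 is a doubling. Fgg, the gamma chain, had 5.31, 4.71 and 4.93 on the day 0 arrays, 12.81, 9.46 and 9.98 on the day 2 arrays and 8.19, 7.35 and 6.59 on the day 5 arrays. Its groups were fully apart in the order day 0, day 5, day 2, and the day 2 mean was 54.6-fold above day 0 and 10.4-fold above day 5. Fga, the alpha chain, had 7.00, 6.08 and 6.66 on day 0, 12.14, 10.00 and 11.49 on day 2 and 8.88, 9.06 and 6.88 on day 5. The day 2 mean of Fga was 24.7-fold above day 0 and 7.66-fold above day 5, and its day 5 arrays overlapped those of day 0.

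Fgb, the beta chain, had 3.62, 3.76 and 4.94 on day 0, 10.99, 7.27 and 8.97 on day 2 and 5.58, 3.80 and 4.81 on day 5. On day 0, 2 of the 3 Fgb arrays lay at or below the floor set by the negative control probe sets, and on day 5 1 did. With these arrays raised to the floor, the day 2 mean was at least 26.6-fold above day 0 and at least 15.7-fold above day 5, with the day 0 and day 5 arrays intermixed. Saa1, an apolipoprotein of the acute phase, had 1.63, 6.13 and 4.35 on day 0, 10.74, 8.41 and 9.57 on day 2 and 6.28, 4.53 and 4.49 on day 5. The day 0 mean of Saa1 lay at the floor, so its day 2 mean was at least 27.4-fold above day 0, and it was 22.2-fold above day 5. On day 5, 1 Saa1 array lay at or below the floor, and with it raised day 2 was 20.3-fold above day 5. Single arrays moved these folds: without array 7 the day 2 mean of Fgg was 26.7-fold above day 0 and 5.08-fold above day 5, and without array 8 it was 85.3-fold and 16.2-fold. Fga stood 37.6-fold above day 0 and 11.6-fold above day 5 without array 8. It stood 17.9-fold above day 0 without array 7 and 4.73-fold above day 5 without array 12. With the measured values of Fgb, day 2 was 31.3-fold above day 0 and 20.4-fold above day 5, against 16.1-fold and 10.5-fold without array 7 and 58.6-fold and 38.1-fold without array 8. Saa1 stood 33.5-fold above day 5 without array 10 and 14.9-fold without array 7. With its measured values it stood 20.2-fold above day 0 without array 1 and 96.0-fold without array 2. The Saa1 probe set is of a type shared between transcripts, and signal from its near-identical neighbour Saa2 cannot be told apart from it. A second probe set of Saa1, not used by the rule, averaged 0.63, 7.63 and 1.55 in the bound fraction on days 0, 2 and 5, and Saa2 itself averaged 4.63, 7.26 and 2.49. The day 0 and day 5 means of that second probe set and the day 5 mean of Saa2 lie among the negative controls.

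**Figure D1:**
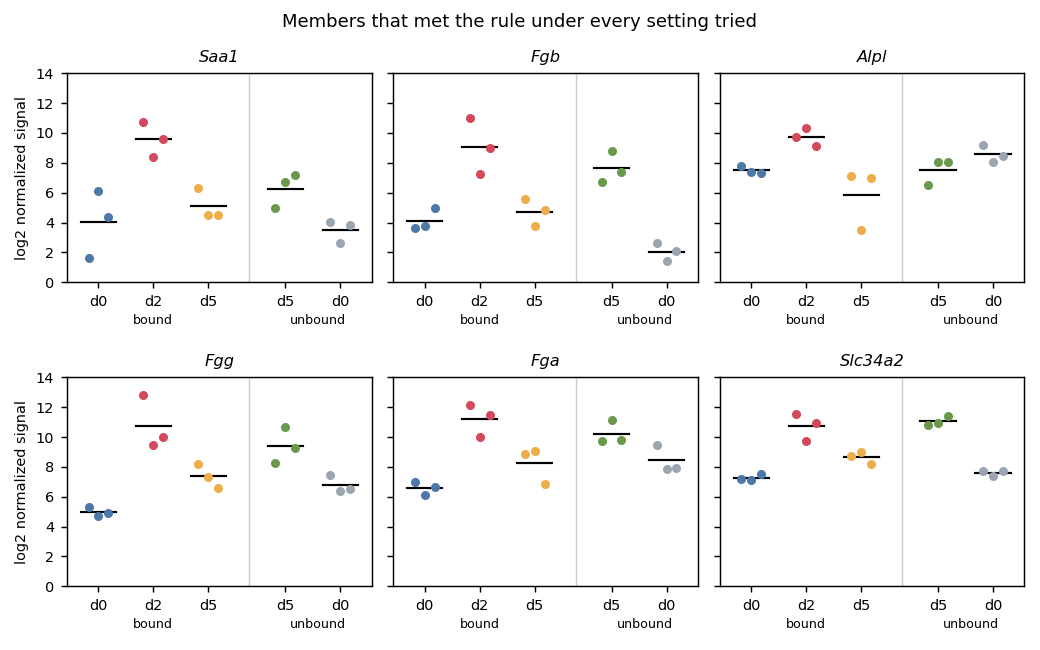
Log2 normalized signal (y axis) of 6 members on every array, with bound day 0, day 2 and day 5 to the left of the grey line and unbound day 5 and day 0 to the right; points are arrays and bars are means of 3. The day 2 bound arrays lie above all other bound arrays, and Fgb spans 7.27 to 10.99 among them.

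The surface enzyme and transporter members were Alpl and Slc34a2, and they differed in what remained on day 5. Slc34a2, a sodium-dependent phosphate cotransporter, had 7.21, 7.10 and 7.53 on the day 0 bound arrays, 11.55, 9.71 and 10.93 on day 2 and 8.75, 9.00 and 8.22 on day 5. All 3 day 5 arrays were above all 3 day 0 arrays, and the day 2 mean was 11.0-fold above day 0 and 4.21-fold above day 5. Alpl, tissue-nonspecific alkaline phosphatase, had 7.82, 7.40 and 7.34 on day 0, 9.72, 10.35 and 9.13 on day 2 and 7.09, 3.50 and 6.99 on day 5. Alpl was the only member whose day 5 arrays all lay below its day 0 arrays, and its day 2 mean was 4.64-fold above day 0 and 14.7-fold above day 5. The lowest of those values came from array 11, without which day 2 was 6.48-fold above day 5, and without array 10 it was 22.5-fold above. That lowest value lay below the floor set by the negative controls. With it raised to the floor, day 2 was 10.6-fold above day 5. These 6 genes, the 4 acute phase members, Slc34a2 and Alpl, met the rule under each of 17 other settings.

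Plau, urokinase, which turns plasminogen into plasmin, had 7.49, 7.83 and 5.89 on day 0, 8.39, 8.37 and 9.81 on day 2 and 6.14, 4.06 and 6.83 on day 5. Its day 2 mean was 3.45-fold above day 0 and 9.07-fold above day 5 (5.18-fold without array 11), and the day 0 and day 5 arrays overlapped. The array 11 value lay below the negative control floor, and with it raised to the floor day 2 was 7.43-fold above day 5. Without array 3 the day 2 mean was 2.29-fold above day 0. A second probe set of Plau averaged 5.66, 6.22 and 4.87 on days 0, 2 and 5, with day 2 not apart from day 0. Plau met the rule under 16 of the 17 other settings and lost it where the probe sets of a gene were averaged.

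Among members that act on replicating or damaged DNA, Fignl1 had the largest difference from day 0 and Atad5 the next. Fignl1, an ATPase of homologous recombination, had 4.60, 5.37 and 5.47 on day 0, 8.64, 9.18 and 9.52 on day 2 and 7.94, 8.02 and 8.30 on day 5. It was 15.7-fold above day 0 on day 2 but only 2.04-fold above day 5, and it was the member nearest to the difference the rule required. Atad5, which takes the sliding clamp PCNA off DNA, had 7.01, 5.46 and 7.70 on day 0, 9.32, 8.55 and 9.52 on day 2 and 7.39, 7.40 and 8.27 on day 5. Atad5 was 5.31-fold above day 0 (3.43-fold without array 2) and 2.72-fold above day 5.

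Atad2, a chromatin ATPase with a bromodomain, had 7.67, 8.50 and 8.56 on day 0, 10.49, 9.31 and 9.47 on day 2 and 8.47, 8.35 and 9.08 on day 5. Wdr76, a WD repeat protein, had 7.52, 6.80 and 6.91 on day 0, 7.97, 8.28 and 8.54 on day 2 and 7.01, 6.91 and 6.39 on day 5. G2e3, a ubiquitin ligase named for its expression in G2 and M phase, had 8.10, 8.10 and 8.22 on day 0, 9.84, 9.16 and 9.18 on day 2 and 8.34, 8.14 and 8.61 on day 5. In these 3 genes the day 0 and day 5 arrays overlapped, and the day 2 means stood 2.86-fold (Atad2), 2.27-fold (Wdr76) and 2.39-fold (G2e3) above day 0. For G2e3, a second probe set had its bound day 2 mean below its day 0 mean (log2 difference -0.487), as had that of Wdr76 (-0.972). Another G2e3 probe set had the higher mean on day 2 (1.89 above day 0), with overlapping arrays. Fignl1 kept its membership under 7 of the 17 other settings, G2e3 under 11, Atad2 under 12, Wdr76 under 14 and Atad5 under 15.

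Rasd1, a Ras-related protein that glucocorticoids induce, had 2.65, 2.24 and 0.92 on day 0, 8.28, 8.00 and 8.85 on day 2 and 6.74, 7.82 and 6.38 on day 5. Its day 0 mean lay at the negative controls, so day 2 was at least 20.1-fold above it. Day 5 of Rasd1 was above every day 0 array, and day 2 was 2.63-fold above day 5. Bbs7, a subunit of the BBSome of primary cilia, had 7.55, 7.32 and 7.82 on day 0, 9.56, 8.97 and 9.49 on day 2 and 8.40, 8.22 and 8.30 on day 5. Its 3 groups were apart from each other, but Bbs7 met the rule under only 9 of the 17 other settings. Ppp4r3a, a regulatory subunit of protein phosphatase 4, had 6.93, 6.41 and 5.78 on day 0, 8.35, 8.21 and 8.53 on day 2 and 7.79, 3.52 and 7.79 on day 5. Its day 2 mean was 3.99-fold above day 5, and 6.52-fold without array 10 or 6.53-fold without array 12. Its low day 5 mean came from array 11, without which day 2 was 1.49-fold above day 5 and Ppp4r3a no longer met the rule. The array 11 value lay below the negative control floor, and with it raised to the floor day 2 was 2.89-fold above day 5. Rasd1 met the rule under 15 of the 17 other settings and Ppp4r3a under 14.

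Smtnl2, a smoothelin-like protein, had 9.47, 10.50 and 10.69 on day 0, 12.03, 10.84 and 11.85 on day 2 and 10.73, 9.89 and 10.68 on day 5. A second probe set of Smtnl2 averaged 8.61, 9.35 and 9.62 on days 0, 2 and 5, highest on day 5. Oit1 was the tightest on day 2, with 7.11, 8.39 and 7.22 on day 0, 8.99, 8.84 and 8.94 on day 2 and 8.56, 7.21 and 7.70 on day 5. The kinase gene Stk32a had 7.53, 7.21 and 6.33 on day 0, 8.83, 7.65 and 8.47 on day 2 and 6.47, 7.33 and 7.43 on day 5. Its lowest day 2 array, array 8, exceeded the highest other bound array by 0.12. Fam184a had 7.43, 5.84 and 5.80 on day 0, 7.93, 7.44 and 9.19 on day 2 and 6.87, 7.00 and 7.33 on day 5. Its lowest day 2 array exceeded its highest day 0 array by only 0.004. A second probe set of Fam184a, below the level the rule required, averaged 5.10, 6.85 and 5.35 on days 0, 2 and 5. Smtnl2 met the rule under 11 of the 17 other settings, Fam184a under 12, and Oit1 and Stk32a under 13 each.

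**Figure D2:**
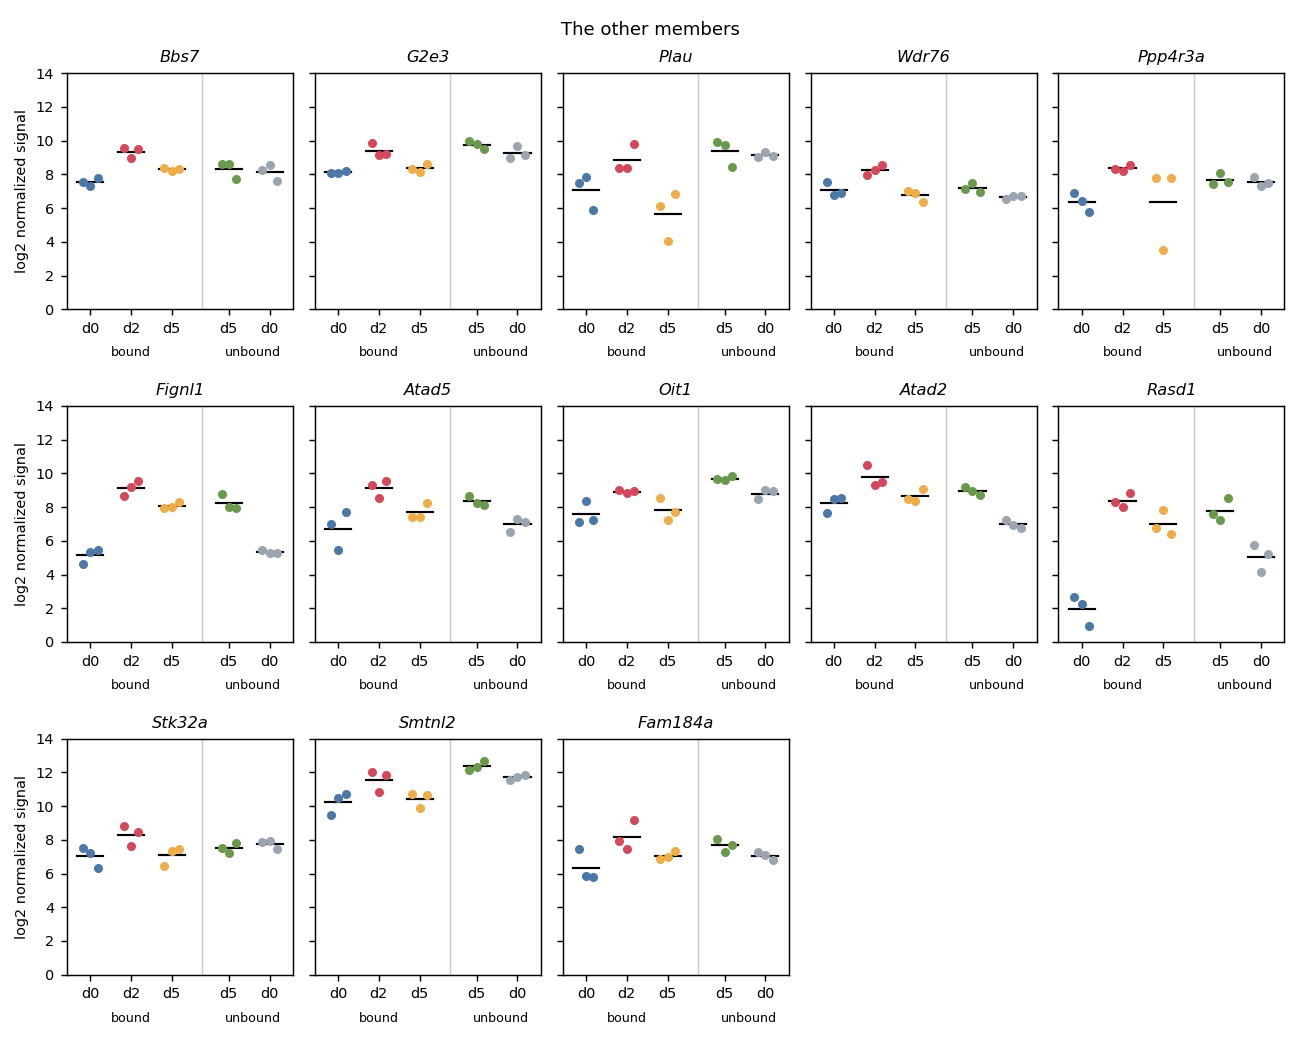
Log2 normalized signal (y axis) of the other 13 members on every array, with bound day 0, day 2 and day 5 left of the grey line and unbound day 5 and day 0 right of it; points are arrays and bars are means of 3. The day 5 bound points of Ppp4r3a lie at 7.79, 3.52 and 7.79, and the day 0 bound points of Rasd1 lie at or below 2.65.

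In the 17 members with a day 0 mean above the negative controls, day 2 minus day 0 ranged between 1.19 and 5.77. Over all 19 members its median was 1.99, and day 2 minus day 5 ranged between 1.03 and 4.47 with a median of 1.44. The spread among the 3 day 2 arrays reached 3.72 in Fgb and was 0.15 in Oit1. Of the members, 11 had 15 further probe sets, of which 5 stood higher on every day 2 array than on any day 0 array and 2, those of Saa1 and Fam184a, were apart from both other times by the required difference.

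What remained on day 5 differed between members. The share of the day 2 minus day 0 difference still present in the day 5 bound mean was 78.3% for Rasd1 and 74.1% for Fignl1, and with all arrays these 2 were the members above 50%. It was 41.8% for Bbs7, 41.5% for Fgg, 40.1% for Atad5, 39.9% for Slc34a2 and 36.5% for Fga, against 19.2% for Saa1 and 12.5% for Fgb. The median was 19.2%, and for Saa1 and Rasd1 the share depends on day 0 values at the negative controls. Alpl (-75.2%) and Plau (-78.0%) had day 5 means below their day 0 means. Without array 11 the shares were -21.9% for Alpl, -32.7% for Plau and, in place of -0.25%, 71.2% for Ppp4r3a. The day 5 bound arrays lay above all day 0 bound arrays in 5 members, Fgg, Slc34a2, Bbs7, Fignl1 and Rasd1, where 22.4% of all genes did so. They lay below in 1 member, Alpl, where 15.8% of all genes did so, and they overlapped in the other 13.

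**Figure D3:**
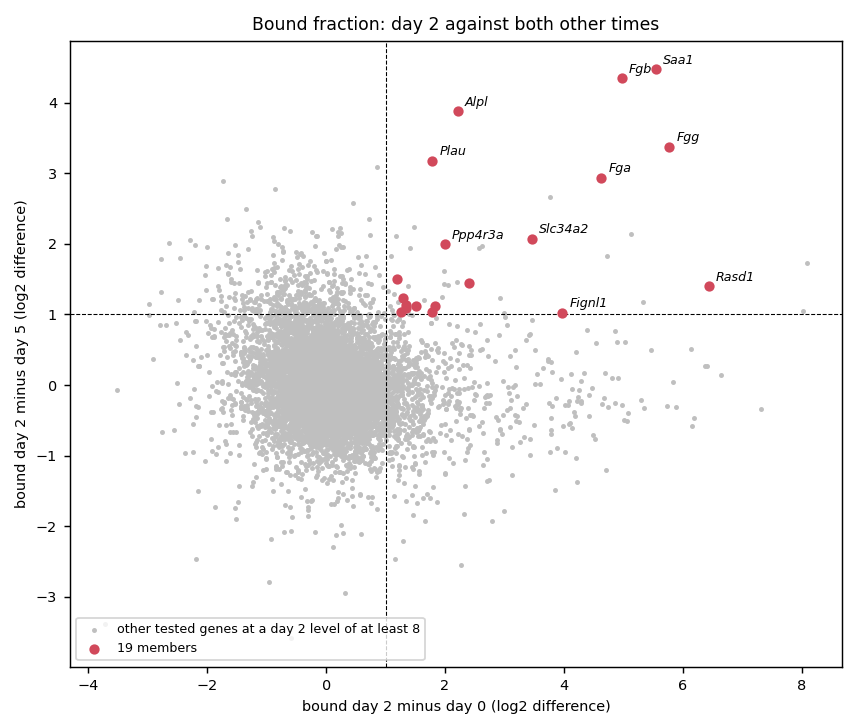
Bound day 2 minus day 0 (x axis) against bound day 2 minus day 5 (y axis), both log2 differences of group means, for tested genes with a day 2 level of at least 8; dashed lines mark a difference of 1 and red points are the 19 members. Saa1, Fgb and Fgg lie far from both lines, whereas Fignl1 (1.03 on the y axis) lies just above the line; grey points beyond both lines had overlapping arrays.

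The genes on either side of each threshold had much the same values. On overlap, Fam184a, Smtnl2 (0.11) and Stk32a were just inside, and Ccl2 (-0.0025), Ackr4 (-0.03) and Kcnh1 (-0.06) just outside, as the lowest day 2 array minus the highest other bound array. On the difference, Fignl1, G2e3 (1.03) and Bbs7 (1.04) were just inside and Mboat1 (0.99), Cp (0.95) and Adamts1 (0.94) just outside. On the day 2 level, Fam184a (8.18), Wdr76 (8.26) and Stk32a (8.31) were just inside and Cdh2 (7.93), Polr1b (7.79) and Mapk4 (7.69) just outside. Of the 18161 genes, 142 had day 2 arrays above every other bound array, and 51 of these had the required difference.

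Between the 3 day 2 arrays the members differed together. Array 8 was the lowest of the 3 in 16 of the 19 members, array 7 the highest in 11 and array 9 in 7. The share of all genes with this order was not determined, so these counts are not shown to be particular to the members. Centred on each gene's mean over the 15 arrays, the members averaged 1.98 on array 7, 1.01 on array 8 and 1.72 on array 9. Tubular injury markers, 14 genes summed, were in the same order, at log2 16.2, 15.3 and 15.9. They stood at 15.1 to 15.8 on the day 5 bound, 14.5 to 14.9 on the day 0 bound, 16.3 on the day 5 unbound and 15.1 to 15.2 on the day 0 unbound arrays. Of these 14 markers, 0 were at the negative controls in the day 2 and day 5 bound groups and 1, Krt20, in the day 0 bound group.

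Proximal tubule markers, 16 genes summed, also followed that order on arrays 7, 8 and 9, at 15.0, 13.3 and 14.2, with 12.9 to 13.8 on the day 5 bound and 15.0 to 15.6 on the day 0 bound arrays. The macrophage and monocyte sum of 14 genes was 14.1, 12.3 and 13.3 on arrays 7, 8 and 9, 12.9 to 14.3 on the day 5 bound and 11.3 to 13.0 on the day 0 bound arrays. Of 13 marker lists, 8 had that order, 2 (fibroblast, and pericyte and smooth muscle markers) were highest on array 8 and 3 (endothelial, neutrophil and lymphocyte markers) had another order. Array 9 was the bright one of the 3, and the part of brightness in the members' order was not tested. The part of these cell types in the members' values was not tested, and in such mixed RNA more cells of a type and more message per cell cannot be told apart. Without array 8 the rule held 98 genes, which included 18 of the 19 members and not Fignl1. Of the tubular injury markers, Havcr1, Lcn2 and Dcdc2a were among those 98 and the others were not. These markers were chosen for mention after their values were seen.

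**Figure D4:**
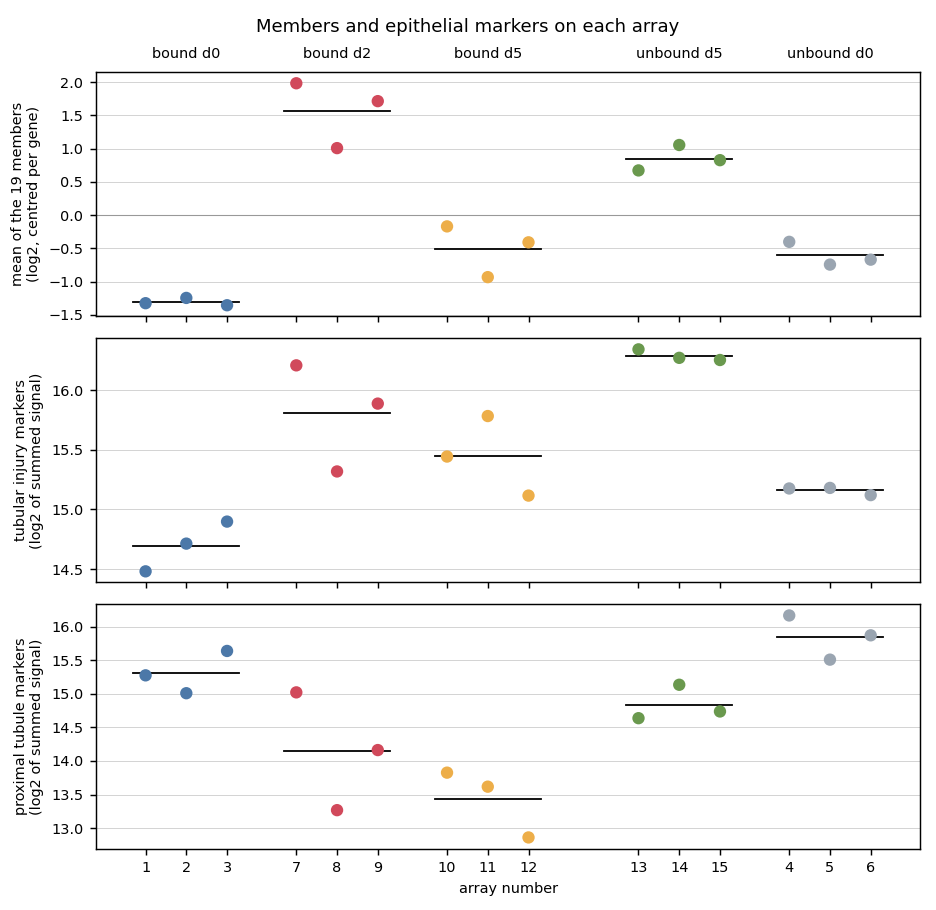
Mean of the 19 members, centred per gene (top), and log2 summed signal of the tubular injury (middle) and proximal tubule markers (bottom) on each array, with bound day 0, day 2 and day 5 left and unbound day 5 and day 0 right; black lines are group means. On day 2, array 8 is the lowest in all 3 panels, and the members stand at 1.98, 1.01 and 1.72.

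Set against the unbound fraction, most members stood lower in the bound fraction at both times measured. On day 5 the bound mean lay below the unbound mean in 19 of 19 members, with a median difference of -1.31 against 0.03 over all tested genes. All 3 bound arrays were below all 3 unbound arrays in 8 members, where 20.0% of all genes were so. On day 0 the bound mean was lower in 15 of the 19, with a median of -0.72 against -0.13 over all tested genes. The day 0 bound arrays lay below the unbound in 9 members (20.9% of all genes) and above in 3, Fgb, Atad2 and Wdr76 (14.2% of all genes). Plau differed most on day 5, with bound RNA at 5.67 ± 1.44 and unbound RNA at 9.37 ± 0.79, and Fgb followed with bound RNA at 4.73 ± 0.89 and unbound RNA at 7.63 ± 1.04 (SD, n = 3 each). Bbs7 differed least on day 5, with bound RNA at 8.31 ± 0.09 and unbound RNA at 8.31 ± 0.51. These bound values share the arrays that chose the members, so the differences carry no test. The rule asks for day 0 and day 5 bound arrays below those of day 2, which favours low bound means at both times. The share of all genes with a bound mean below the unbound mean was not determined.

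In the unbound fraction, day 5 of obstruction against day 0 was tested with limma over 16839 genes, among them all 19 members. Of the members, 5 rose, 0 fell and 14 did not pass, against 6.44% of all tested genes that were higher and 3.93% that were lower. The median difference of the members was 0.88, and that of all tested genes was 0.01. In all, 10 members had an unadjusted p under 0.05, each with day 5 the higher, where 13.4% of all tested genes were higher and 10.9% lower at that level. The day 5 mean was the higher in 17 of 19, and the share of all genes with the higher day 5 mean was not counted. The arrays of the 2 days did not overlap in 13, where 22.8% of all genes had day 5 wholly above day 0.

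Fgb rose most. Its unbound arrays had 6.73, 8.77 and 7.41 on day 5, against 2.64, 1.42 and 2.12 on day 0. The day 0 values were at the negative controls, so Fgb was at least 11.1-fold higher on day 5, with a log2 difference of 5.58 ± 0.84 (SE, limma adjusted p = 0.00141). Slc34a2 had 10.81, 10.96 and 11.44 on day 5, against 7.70, 7.41 and 7.71 on day 0, a rise of 11.0-fold (3.46 ± 0.39, limma adjusted p = 0.000237). The unbound day 5 mean of Slc34a2 was 11.07 ± 0.33, beside 10.73 ± 0.94 on the bound day 2 arrays (SD, n = 3 each).

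Fignl1 had 8.77, 7.99 and 7.96 on the day 5 unbound arrays, against 5.44, 5.29 and 5.27 on day 0, and rose 7.51-fold (2.91 ± 0.31, limma adjusted p = 0.000171). Rasd1 had 7.60, 7.26 and 8.51 on day 5, against 5.76, 4.15 and 5.23 on day 0 (2.74 ± 0.56, limma adjusted p = 0.00839). Atad2 had 9.18, 8.98 and 8.71 on day 5, against 7.26, 6.91 and 6.76 on day 0 (1.98 ± 0.35, limma adjusted p = 0.00391). In each of these 3 genes the unbound arrays of the 2 days were apart. All 5 calls held when any 1 unbound array was left out, whereas Fignl1 (1.34) and Atad2 (1.10) no longer passed with averaged probe sets. Without the 4 bright arrays Rasd1 (2.47) and Atad2 (1.99) no longer passed, in a fit of fewer arrays.

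The other acute phase members did not pass. Fgg had 8.26, 10.70 and 9.29 on the day 5 unbound arrays, against 7.43, 6.37 and 6.53 on day 0 (2.64 ± 0.81, limma adjusted p = 0.0569). Fga had 9.75, 11.13 and 9.79 on day 5, against 9.47, 7.86 and 7.95 on day 0 (1.80 ± 0.70, limma adjusted p = 0.131). Saa1 had 4.97, 6.70 and 7.15 on day 5, against 4.05, 2.64 and 3.84 on day 0 (2.77 ± 1.02, limma adjusted p = 0.111), with the day 0 mean at the negative controls. In all 3 the day 5 arrays lay above every day 0 array. In the fit of the 6 unbound arrays alone Fgg and Saa1 passed, with array weights all 3 passed, and in some further settings Fgg or Saa1 passed.

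Plau did not pass, at 9.89, 9.76 and 8.46 on the day 5 unbound arrays, against 9.01, 9.36 and 9.10 on day 0 (0.21 ± 0.71, limma adjusted p = 0.892). Alpl had the lowest difference, at 6.53, 8.08 and 8.03 on day 5, against 9.22, 8.03 and 8.47 on day 0 (-1.02 ± 0.80, limma adjusted p = 0.489). Stk32a was the other member with a negative difference (-0.23 ± 0.39). Atad5 (1.35 ± 0.50, limma adjusted p = 0.109) and Oit1 (0.88 ± 0.37, limma adjusted p = 0.163) had arrays of the 2 days apart without passing. The count of members that rose was 9 with only the unbound arrays in the fit, 12 with array weights and 3 without the bright arrays, where 13.6%, 17.0% and 2.22% of all tested genes were higher.

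**Figure D5:**
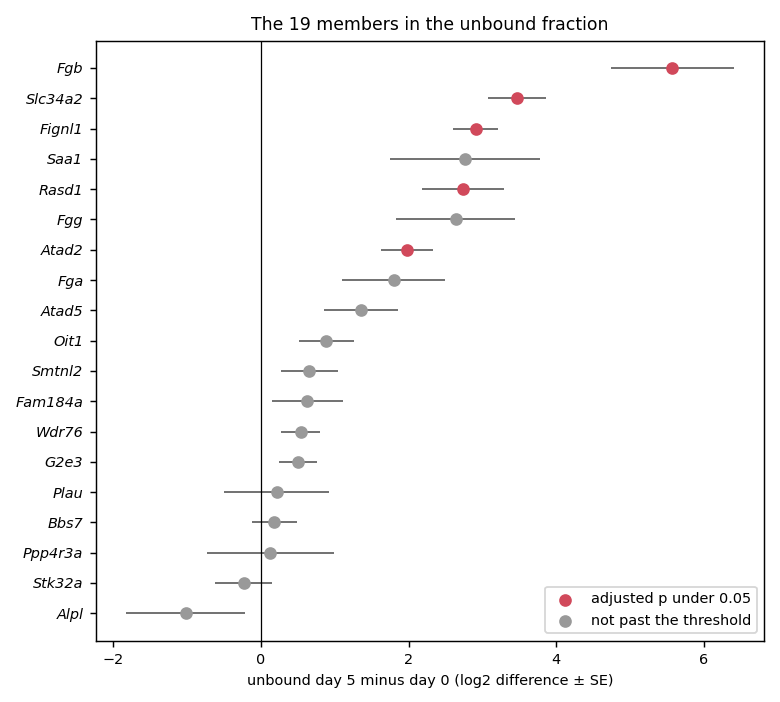
Unbound day 5 minus day 0 (x axis, log2 difference ± SE from limma, 3 arrays a group) for each of the 19 members, sorted by size; red points passed at an adjusted p under 0.05. Fgb (5.58), Slc34a2 (3.46), Fignl1 (2.91), Rasd1 (2.74) and Atad2 (1.98) passed, and Alpl lies at -1.02.

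Of the members, 5 belong to the gene lists compared here and 14 to none. In the interleukin-6 family and acute phase list, 21 genes besides Saa1, Fga, Fgb and Fgg were tested. In the bound fraction on day 2 over day 0, 9 of these 21 were higher, 0 lower and 12 did not pass, where 5.61% of all tested genes were higher and 3.66% lower. Lcn2, the siderophore-binding lipocalin of injured tubules, was higher (4.86 ± 0.29), as were the signalling inhibitor Socs3 (2.97 ± 0.35), the transcription factor Stat3 (1.24 ± 0.18) and Il6, which averaged 0.84 (among the negative controls), 8.85 and 7.80 on days 0, 2 and 5. On day 2 over day 5, 1 of the 21 was higher, 0 were lower and 20 did not pass, where 0.0772% of all tested genes were higher and 0.511% lower. The rule took out the 4 members on these same arrays, so the counts among the rest are set in part by that choice. The 1 higher gene was Saa2 (limma adjusted p = 0.0313), and Il6 (1.05) and Socs3 (-0.42) did not pass. Signal from Saa2 cannot be told apart in the Saa1 probe set, and Saa2 met the rule at a level of at least 7. Its call is thus not separate from the choice of the members. At an unadjusted p under 0.05 day 2 over day 5 gave 3 of the 21 higher and 0 lower, where 6.46% of all tested genes were higher and 9.77% lower. In the unbound fraction on day 5 over day 0, 10 of the 21 were higher and 0 lower.

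The G1-S and DNA replication list, which holds none of the members, had 25 of 34 genes higher and 0 lower on day 2 over day 0 in the bound fraction, with a median of 1.51. On day 2 over day 5, 0 of the 34 were higher and 0 lower in limma (2 and 1 at an unadjusted p under 0.05), with a median of 0.10 against -0.09 over all tested genes. The day 2 group mean was the highest of the 3 bound means in 21 of the 34 genes, against 21.2% of all tested genes. The helicase subunit Mcm6 averaged 6.89, 10.68 and 10.50 on days 0, 2 and 5, and thymidine kinase Tk1 5.35, 10.16 and 10.06, so both stayed high on day 5. In the mitosis and kinetochore list, 33 of 34 genes were higher on day 2 over day 0 and the median of day 2 minus day 5 was -0.32.

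In the list of matrix proteases and the plasminogen system, 12 of 23 genes besides Plau were higher and 0 lower on day 2 over day 0. At an unadjusted p under 0.05, 13 were higher and 5 lower there, and the share of all genes at that level was not counted. On day 2 over day 5, 0 were higher in limma and 1, the gelatinase gene Mmp2, was lower (-2.08). At an unadjusted p under 0.05, 2 were higher and 7 lower, where 6.46% of all tested genes were higher and 9.77% lower. The median of day 2 minus day 5 was -0.58. Plaur, the urokinase receptor, averaged 6.32, 8.08 and 8.01 in the bound fraction on days 0, 2 and 5, and so lacked the lower day 5 level of Plau. Of the 14 tubular injury markers, 4 were higher on day 2 over day 0, and on day 2 over day 5 limma called 0 (2 higher at an unadjusted p under 0.05). The genes named from these lists were chosen after their values were seen.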

How the data were processed

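Polysomal RNA was amplified in 1 round with a NuGEN WT-Ovation kit and labelled with an Encore Biotin Module, per the labels. The authors deposited 1 linear intensity per probe set and array. How probes were summarised, and whether background or brightness was adjusted, is not given in the sources used here. Array medians lay between 16.4 and 198.8.

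Values were taken as log2(value + 1) and quantile normalized over the 15 arrays, and a gene with several probe sets was read from that of highest mean. Of 45037 probe sets, 34945 matched 1 gene, 932 several and 9160 none. A gene was tested if 3 or more arrays had it above their 25th percentile (16839 genes). The limma model (version 3.58.1, R 4.3.3) had a mean for each group, 10 residual degrees of freedom and 2.33 prior ones. P-values were adjusted over all tested genes (Benjamini-Hochberg) at 0.05. The highest of 27 negative control probe sets on an array served as its floor, and where a group mean lay at or below it, its arrays were raised to the floor and the fold written as a lower bound. The members, the gene lists and the other settings were chosen with earlier results of these data known. Named genes are the members, those nearest to each threshold, Col1a1, and list genes named after their values were seen. The fit was tested on simulated data. Group labels of day 0, day 2 and day 5 came from the sample titles. Settings tried besides were another pseudocount, median centring, averaged probe sets, other filters and thresholds, brightness as a covariate, array weights and leaving out arrays. Figures were drawn with matplotlib 3.10.9.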

Additional observations from a re-analysis of the deposited data

How the results depend on the processing

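The number of genes meeting the rule depended most on array 8. Leaving out 1 bound array at a time gave 19 to 98 genes, with 98 without array 8, 31 without array 7 and 30 without array 12. Averaged probe sets gave 11 genes, a required difference of 1.5 gave 8, and leaving out the bright arrays 9 and 12 gave 30. Leaving out arrays 8 and 11, a setting chosen after seeing the data, gave 122, of which 16 were among the 19. The other 10 settings stayed within 1.5 times the 19 genes. The number of members higher in the unbound fraction was 9 with only the unbound arrays, 12 with array weights and 3 without the bright arrays, where 13.6%, 17.0% and 2.22% of all tested genes were higher, and between 4 and 6 in the other 14 settings, with 5 whichever unbound array was left out. No member was lower in limma under any of the 17 settings, and the median difference lay between 0.59 and 0.97. Small unbound differences changed sign in 8 cases. With median centring, which moved the median of all genes to -0.218, Bbs7 stood at -0.0300, Plau at -0.0369 and Ppp4r3a at -0.0338. With averaged probe sets Plau stood at -0.0494 and Wdr76 at -0.0394. Leaving out 1 unbound array at a time gave -0.0758 to 0.471 for Bbs7, -0.0478 to 0.670 for Plau and -0.0762 to 0.265 for Ppp4r3a, with the negative values without arrays 6, 13 and 14 in that order. None of these had passed, and the cause was not tested. No paired analysis was possible because the array numbers 1 to 15 are not shared between groups. Genes near the negative controls have only bounds, and 3 arrays a group limit what can be found.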
